A study of Mus musculus with 12 samples.

Results

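Interferon-stimulated genes were followed across 12 arrays of mouse colon samples. These are the genes that cells switch on after interferon, and 37 of them were listed by symbol for their known induction. Earlier results of these data were known when the list was made. A gene counted as measured when a probe set carried its symbol alone, and probe sets of the same gene were averaged. That left 32 of the 37 genes, out of 19935 genes measured in this way. Irf1 had 2 probe sets and the other 31 genes had 1 each. Ifi44 had no such probe set, and Isg15, Gbp2, Igtp and Irgm2 were covered only by probe sets that carry a further symbol.

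Type I and type III interferons signal through JAK kinases to a complex that includes STAT2 and IRF9 and binds a motif called the interferon-stimulated response element. Interferon gamma acts mainly through a different motif, the gamma-activated site. The induced genes encode sensors of foreign nucleic acid, proteins that block viral replication, GTPases that attack pathogen vacuoles, and the machinery that loads peptides onto MHC class I. In the gut lining, microbes are known to maintain a basal level of these genes.

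Male mice of 8 to 10 weeks were either transgenic for Villin-Claudin-2 (TG) or their wild-type littermates (WT). The transgene is named for villin, an epithelial brush border protein, and for claudin-2, a tight junction protein that lets small cations and water through. For 10 days they received either plain water or 4% (w/v) dextran sulfate sodium, abbreviated DSS, which injures the colon lining. The 4 groups hold 3 arrays each, labelled as colon epithelial cells. Whether each array is a separate animal is not labelled, and the p-values cover only the spread between arrays, which may be technical.

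Each value is the log2 signal of a gene relative to its own median over the 12 arrays. The values compare arrays with each other and give no absolute level, so neither the labelled cell type nor the strength of any gene could be checked against zero. WT DSS replicate 2 stood apart from all other arrays, with 3795 of 28815 probe sets more than 1 log2 unit from their median, against 22 to 1035 on the other 11. TG DSS replicate 1 had the most of the TG arrays, 285. On WT DSS replicate 2 Epcam read -1.99 and Cdh1, the epithelial cadherin, read -2.08, while on the other 11 arrays they lay between -0.21 and 0.11. In bulk samples such as these, fewer cells of a type and less RNA per cell cannot be told apart. Cldn2 encodes claudin-2, and its values were -0.04, 0.02 and 0.11 in WT water and 0.36, 0.18 and -0.02 in TG water, groups that overlap, and -0.53, -2.28 and -0.12 in WT DSS and -0.24, 0.27 and 0.15 in TG DSS. TG minus WT was 0.14 ± 0.44 at water (limma adjusted p = 1) and 1.04 ± 0.44 under DSS (limma adjusted p = 0.292), so this gene does not by itself bear out the genotype labels at water.

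Promoter sequences were searched for the motifs named above. The genes were listed for known induction by interferon, so a high share of the response element may follow from that choice. RefSeq promoters of GRCm38.p6, running from 250 bases before to 50 bases after a listed start of the gene, were found for 22 of the 32 measured genes. The core of the response element, taken as 2 copies of GAAA with any 2 bases between them on either strand, stood in 11 of the 22, or 50%, against 3.99% of all 27025 genes with a promoter in the table. The core of the gamma-activated site, TTCNNNGAA, which reads the same on both strands, stood in 6 of the 22, or 27.3%, against 9.55% of all genes. In Bst2 a match of each motif overlapped, and Eif2ak2 held both without overlap. Ifit2 had the largest DSS difference of the 32 genes in both genotypes and held no response element core in the window used. Its only match there was the gamma-activated site, 241 bases before the start used. The absence covers only this window and this exact pattern. The windows below are printed for some of the 11 genes with the response element core, 5′ to 3′ on the strand of the gene. The core, or on the opposite strand 2 copies of TTTC with 2 bases between, is in capitals.
Ifit1, chr19:34640779-34640838, + strand: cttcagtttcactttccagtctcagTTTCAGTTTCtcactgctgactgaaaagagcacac
Ifit3, chr19:34583382-34583441, + strand: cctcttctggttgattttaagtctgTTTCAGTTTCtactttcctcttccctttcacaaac
Rsad2, chr12:26456538-26456597, - strand: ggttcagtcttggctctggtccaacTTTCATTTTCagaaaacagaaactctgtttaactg
Oas3, chr5:120777700-120777759, - strand: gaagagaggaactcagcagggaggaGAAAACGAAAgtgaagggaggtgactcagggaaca
Stat2, chr10:128270251-128270310, + strand: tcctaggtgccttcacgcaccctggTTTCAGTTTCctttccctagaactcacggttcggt
Irgm1, chr11:48871410-48871469, - strand: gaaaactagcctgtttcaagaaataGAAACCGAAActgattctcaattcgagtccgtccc
Ddx58, chr4:40239789-40239848, - strand: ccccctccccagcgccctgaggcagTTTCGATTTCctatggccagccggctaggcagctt
From the start used for each promoter, the core began 85 bases upstream in Ifit1, 122 in Ifit3, 120 in Rsad2 and 75 in Oas3. It began 222 bases upstream in Stat2 and 24 in Irgm1, and at the third transcribed base in Ddx58. For Ifit2, Ifit3 and Oas3 the start used lay inside the gene and not at its outer end, which is at 34550550, 34583119 and 120777684. The printed Ifit3 window lay inside the gene. Ifit1 and Ifit3 held a further match each, at 104 and 156 bases upstream, and Irgm1 an overlapping one at 30. The 11 genes with the response element core had a median DSS difference of 0.41 in WT and 0.41 in TG, and the 11 without it had 0.22 and 0.37. For the gamma-activated site the order of the medians was the other way. They were 0.19 in WT and 0.24 in TG for the 6 genes with it and 0.39 and 0.42 for the 16 without. The ranges with and without a motif overlapped throughout. In WT they were -0.33 to 1.14 with the response element core and -0.35 to 1.73 without. For the gamma-activated site they were -0.23 to 1.73 with it and -0.35 to 1.14 without. These differences were not tested. A match in this window is a description of the letters and shows no binding.

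The genes were not evenly high or low within a group. In WT DSS replicate 1, 31 of the 32 lay above their own median, and in TG DSS replicate 2 again 31. The count was 27 in TG DSS replicate 1, 24 in WT DSS replicate 3, 15 in WT DSS replicate 2 and 7 in TG DSS replicate 3. Among the water arrays it was 23, 11 and 3 in WT replicates 1 to 3 and 7, 2 and 11 in TG replicates 1 to 3. WT DSS replicate 1 was the highest of the 12 arrays for 13 genes and TG DSS replicate 2 for 12. TG DSS replicate 3 was the lowest array for 8 genes and WT DSS replicate 2 for 7. So both DSS groups held an array with nearly every gene above its median and an array with over 16 of them below.

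**Figure D1:**
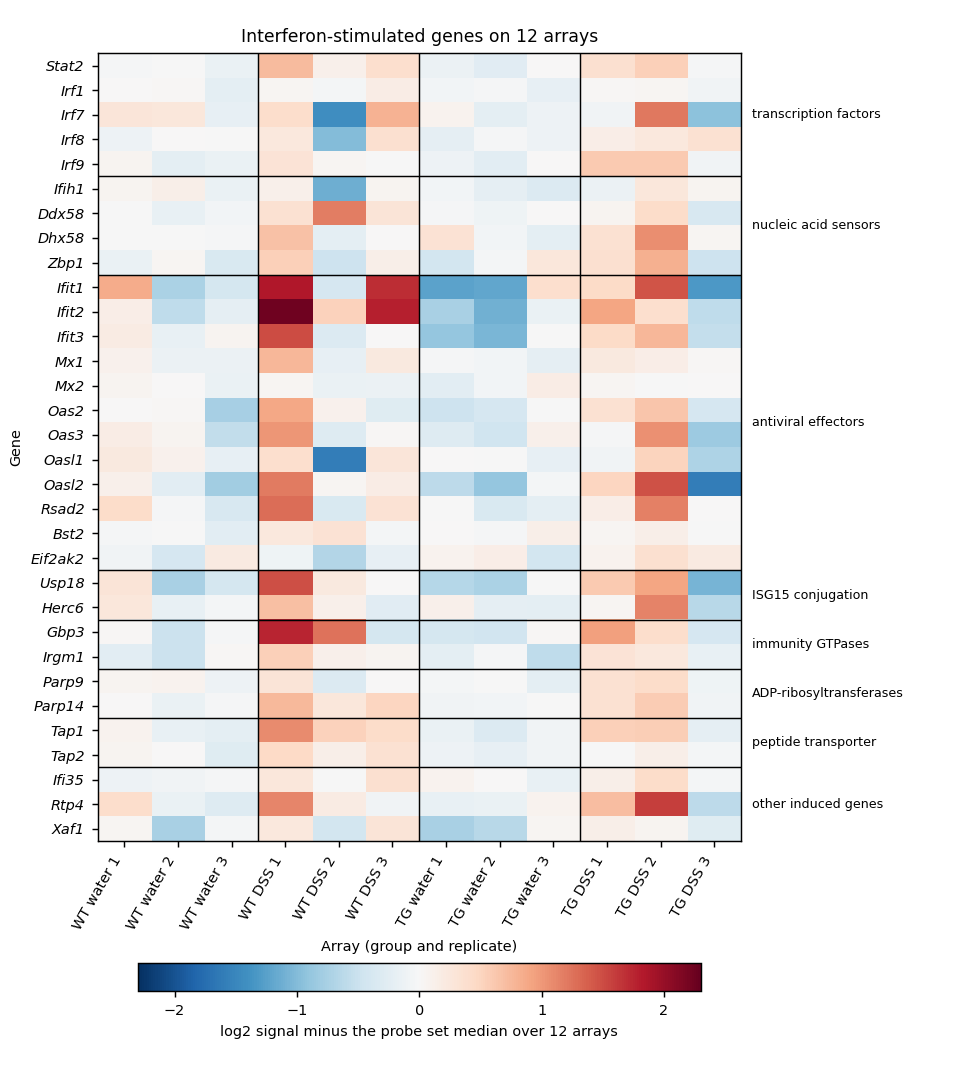
Colour gives the log2 signal of each of the 32 interferon-stimulated genes (rows, by role) on each of the 12 arrays (columns, by group and replicate), relative to the median of the probe set over the arrays. The WT DSS 1 and TG DSS 2 columns are warm for 31 of 32 genes, and the TG DSS 3 column is cool for 25.

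Genes also differed in how far they moved. Ifit2 spanned 3.34 log2 units between its lowest and highest array, Ifit1 3.16 and Oasl2 3.05. Irf1 spanned 0.40 and Mx2 0.43. The median span of the 32 genes was 1.37, beside 0.64 over all 19935 genes. A span over 2 was found for 9 of the 32, beside 10.1% of all genes. Within groups, the median SD of the 32 genes was 0.19 in WT water, 0.17 in TG water, 0.49 in WT DSS and 0.42 in TG DSS. Over all genes the corresponding medians were 0.13, 0.13, 0.19 and 0.11.

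DSS against water was compared within each genotype. In WT, 25 of the 32 genes had a DSS mean above the water mean, where 40.6% of all genes did, and the median difference was 0.34 on the log2 scale beside -0.04 over all genes. In TG, 31 of 32 did, where 46.2% of all genes did, and the median difference was 0.35 beside -0.01. All 25 genes above 0 in WT were also above 0 in TG. No gene of the 32 passed at a limma adjusted p under 0.05 in either comparison, where 0.171% of all genes passed in WT and 0% in TG. An unadjusted p under 0.05 in the higher direction was found for 8 of the 32 in WT, where 5.7% of all genes had one, and for 2 in TG, where 1.21% did. In the lower direction the count was 0 in both, where 9.55% and 1.17% of all genes had one. Over both directions these shares were 15.2% and 2.38%. After quantile normalization the counts among the 32 at an unadjusted p under 0.05 were 4 in WT and 8 in TG. Of all genes 8.57% and 6.3% had one, and the medians of the 32 were 0.31 and 0.61. The main fit shares its estimate of the spread over the 4 groups. With weights per group the counts were 5 in WT and 9 in TG, where 11.6% and 6.05% of all genes had one. With only the groups compared in the fit they were 6 and 5, where 7.75% and 5.65% of all genes had one. So this count depends on the scaling between arrays and on how the spread is estimated.

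The same direction was weaker or absent on single arrays. Set against the water mean of their genotype, 31, 17 and 24 of the 32 genes were higher in WT DSS replicates 1, 2 and 3, with medians of 0.69, 0.04 and 0.29. In TG DSS replicates 1, 2 and 3 the counts were 31, 32 and 15, with medians of 0.37, 0.67 and -0.01. Without WT DSS replicate 1 the WT median was 0.12 with 19 genes above 0, and without WT DSS replicate 2 it was 0.51 with 30. Without TG DSS replicate 2 the TG median was 0.20 with 25 genes above 0, and without TG DSS replicate 3 it was 0.62 with 32. Without WT DSS replicate 2 and TG DSS replicate 1 together the medians were 0.51 and 0.35, with 30 and 31 genes above 0. The 3 DSS arrays all lay above the 3 water arrays for 8 genes in WT, where 5.45% of all genes did so, and for 4 in TG, where 6.76% did. The DSS arrays lay below the water arrays for 0 genes in either genotype, where 10.7% and 6.64% of all genes did so. The 8 in WT were Stat2, Ddx58, Ifit2, Irgm1, Parp14, Tap1, Tap2 and Ifi35, and the 4 in TG were Irf8, Mx1, Rsad2 and Tap2.

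**Figure D2:**
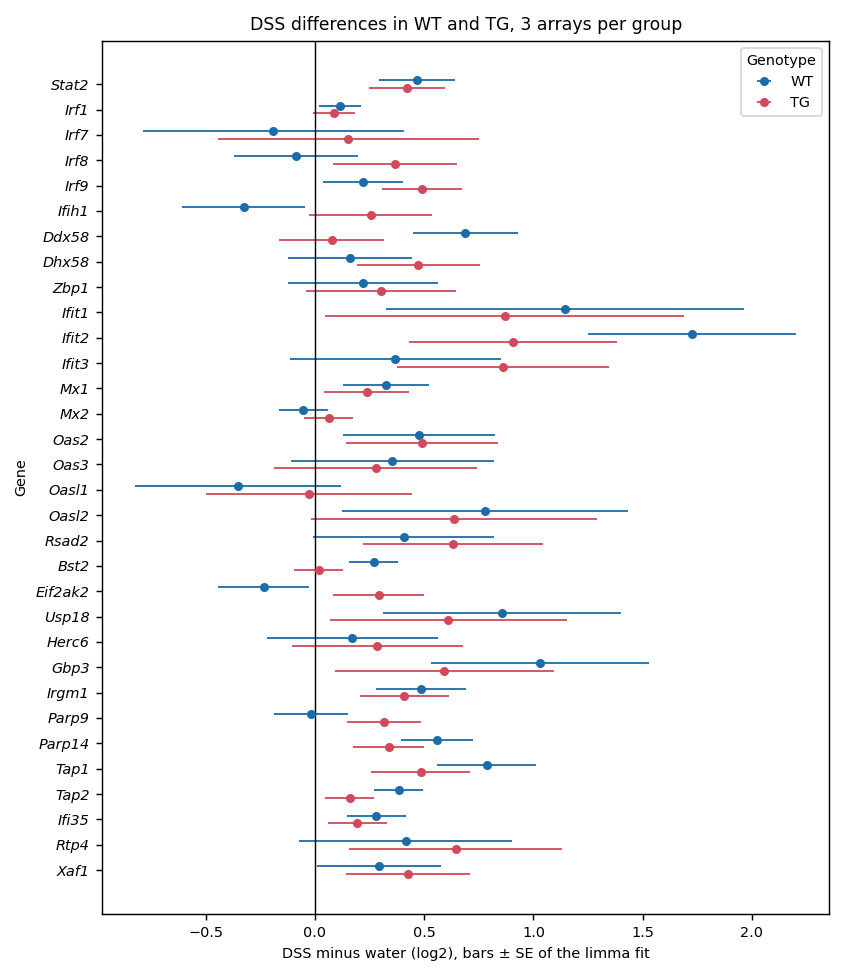
Points give DSS minus water on the log2 scale for each gene in WT (blue) and TG (red), and bars the SE of the limma fit with 3 arrays per group. Most points lie right of 0, 25 of 32 in WT and 31 of 32 in TG, and none passed at an adjusted p under 0.05.

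Macrophage markers were also high on some DSS arrays. The macrophage and monocyte list (18 of 20 genes measured) gave medians of 1.24, 2.42 and -0.08 for the WT DSS arrays, in replicate order, and 0.93, -0.28 and -0.17 for the TG DSS arrays. For the 32 interferon-stimulated genes these medians were 0.61, -0.02 and 0.15 in WT DSS and 0.27, 0.53 and -0.19 in TG DSS. Both medians were above 0 on WT DSS replicate 1 and TG DSS replicate 1. The array with the highest macrophage markers, WT DSS replicate 2, had an interferon-stimulated median near 0, and TG DSS replicate 2 had a high one with macrophage markers below their median. Medians of T and NK cell markers (18 of 20 measured) lay near 0, at 0.11, 0.03 and 0.02 in WT DSS and 0.06, 0.01 and -0.03 in TG DSS. Pan-epithelial markers (15 of 15 measured) read -0.11, -2.08 and 0.02 in WT DSS and -0.21, 0.04 and 0.02 in TG DSS. In the water arrays the macrophage medians ran from -0.39 to 0.17, the T and NK medians from -0.17 to 0.14 and the pan-epithelial medians from -0.07 to 0.11. Cd68, a macrophage lysosomal protein, was at 1.54, 3.34 and 0.53 in WT DSS and 0.96, -0.34 and -0.13 in TG DSS, in the same order of arrays as its list. Cd3e, a T cell receptor subunit, was at 0.19, 0.98 and 0.75 in WT DSS and 0.28, -0.22 and -0.41 in TG DSS, and so stood higher than its list in WT DSS replicates 2 and 3. Because values are centred, no list has a summed level and no marker can be called absent.

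Among neutrophil markers (12 of 14 measured) the median was 2.28, 4.26 and 0.40 in WT DSS and 0.66, -0.04 and -0.08 in TG DSS. B and plasma cell markers (11 of 13 measured) read 1.12, -0.05 and -0.53 in WT DSS and 0.74, 0.24 and -0.38 in TG DSS, and plasmacytoid dendritic cell markers (9 of 10 measured, Bst2 among them) 0.20, 0.34 and -0.05 in WT DSS and 0.04, 0.00 and -0.08 in TG DSS. Fibroblast markers (10 of 10) read 0.92, 2.26 and -0.32 in WT DSS and 0.86, -0.33 and -0.20 in TG DSS, endothelial markers (10 of 10) 0.79, 3.10 and -0.23 in WT DSS and 0.45, -0.28 and -0.20 in TG DSS, and smooth muscle markers (8 of 8) -1.15, 0.63 and 0.14 in WT DSS and 0.07, -0.42 and -0.39 in TG DSS. B and plasma cell markers were highest on WT DSS replicate 1 and TG DSS replicate 1. They were lowest on WT DSS replicate 3 at -0.53, followed by TG water replicate 2 at -0.45 and TG DSS replicate 3 at -0.38. The part of any of these cells in the values of the interferon-stimulated genes was not tested.

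**Figure D3:**
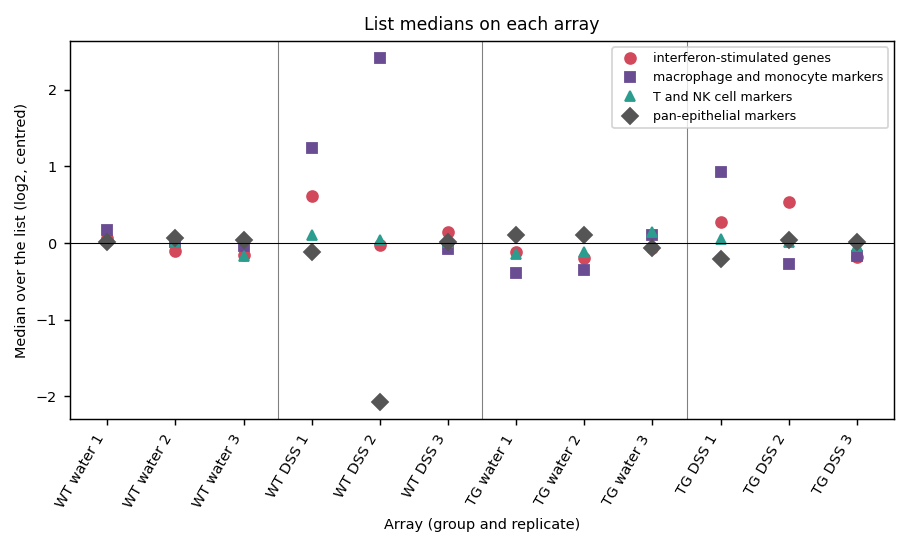
Each point is the median over a gene list on one array, in centred log2 units, for the 32 interferon-stimulated genes and 3 marker lists. On WT DSS 2 the macrophage median is 2.42 and the pan-epithelial median -2.08 while the interferon-stimulated median is -0.02, and on TG DSS 2 the interferon-stimulated median is 0.53 with a macrophage median of -0.28.

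Among the transcription factors, Stat2, which carries the signal of type I and III interferon to the nucleus, read -0.03, -0.01 and -0.15 in WT water, in replicate order as in all that follows, and 0.72, 0.11 and 0.39 in WT DSS. In TG it read -0.13, -0.26 and 0.01 at water and 0.36, 0.56 and -0.03 under DSS. All 3 WT DSS arrays lay above the WT water arrays, while TG DSS replicate 3 lay within the TG water range. The DSS difference in WT was 0.47 ± 0.18 (SE, n = 3 arrays per group; 1.38-fold; unadjusted p = 0.0235; limma adjusted p = 0.258). Irf9, the DNA-binding partner of Stat2, read 0.06, -0.22 and -0.16 in WT water and 0.32, 0.05 and -0.02 in WT DSS, and -0.11, -0.25 and 0.02 in TG water and 0.61, 0.61 and -0.08 in TG DSS. Its 2 high values were TG DSS replicates 1 and 2, and replicate 3 was among the water values. The TG difference was 0.49 ± 0.18 (unadjusted p = 0.0232; limma adjusted p = 1).

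Irf7 amplifies type I interferon production and is itself strongly induced. It read 0.28, 0.26 and -0.19 in WT water and 0.41, -1.42 and 0.80 in WT DSS, and 0.08, -0.23 and -0.12 in TG water and -0.08, 1.20 and -0.95 in TG DSS. Both DSS groups spread over more than the whole water range in each direction, and the DSS differences were -0.19 ± 0.60 in WT and 0.15 ± 0.60 in TG. Irf8, a factor best known from myeloid and B cells, read -0.12, 0.02 and -0.02 in WT water and 0.25, -0.99 and 0.37 in WT DSS. In TG it read -0.20, -0.02 and -0.12 at water and 0.16, 0.24 and 0.36 under DSS, and there the groups did not overlap. Its interaction, the TG difference minus the WT difference, was 0.45 ± 0.40 (limma adjusted p = 0.859), and WT DSS replicate 2 was its lowest array. Irf1, an early factor downstream of interferon gamma, stayed between -0.23 and 0.17 on all 12 arrays, and its 2 probe sets stayed between -0.41 and 0.17 and between -0.19 and 0.17.

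**Figure D4:**
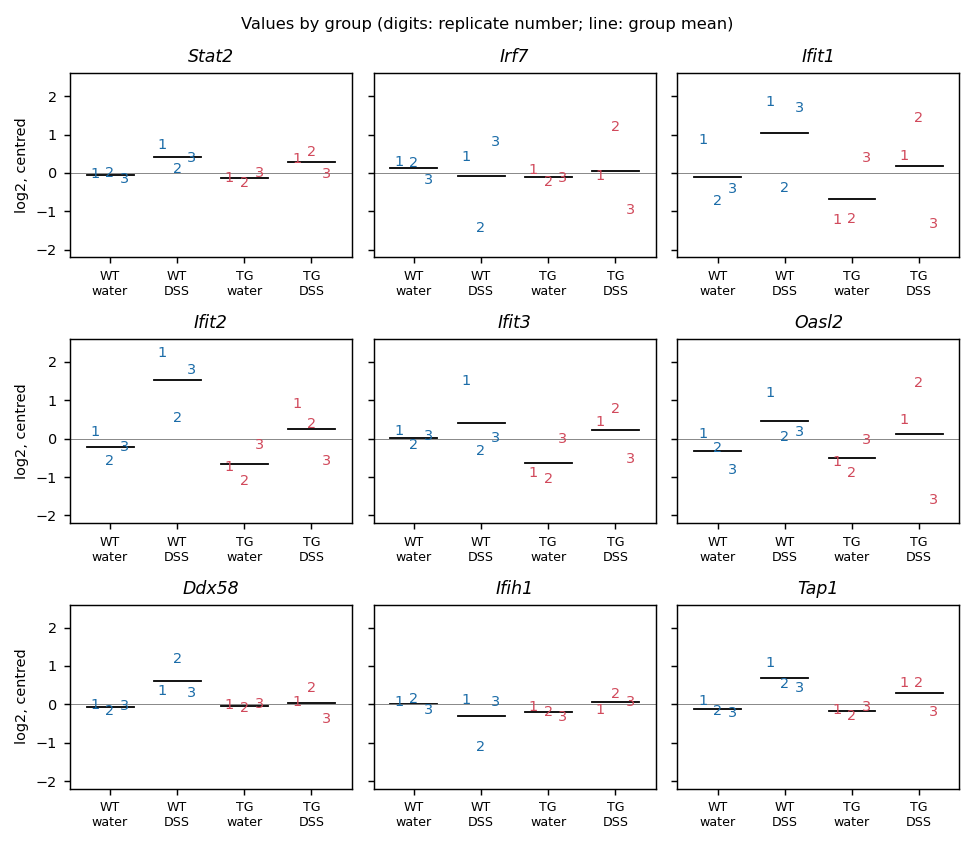
Digits are the replicate numbers of the 3 arrays in each group at their centred log2 values, and lines are group means, for 9 interferon-stimulated genes. In Ifit2 and Tap1 all 3 WT DSS arrays are above the WT water arrays, while Irf7 and Ifih1 have their lowest value, -1.42 and -1.12, on WT DSS 2.

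The nucleic acid sensors did not move together in WT DSS replicate 2. Ddx58 encodes RIG-I, a sensor of viral RNA ends, and read -0.01, -0.17 and -0.06 in WT water and 0.35, 1.18 and 0.30 in WT DSS. In TG it read -0.03, -0.11 and 0.01 at water and 0.06, 0.42 and -0.37 under DSS. WT DSS lay wholly above WT water, with replicate 2 the highest of the 12, whereas TG DSS lay on both sides of TG water. The WT difference was 0.69 ± 0.24 (1.61-fold; unadjusted p = 0.0168; limma adjusted p = 0.226). Its interaction was -0.61 ± 0.34 (limma adjusted p = 0.852).

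Ifih1 encodes MDA5, the sensor of long double-stranded RNA. It read 0.07, 0.13 and -0.16 in WT water and 0.11, -1.12 and 0.07 in WT DSS, so that WT DSS replicate 2 was its lowest array where it was the highest for Ddx58. In TG it read -0.06, -0.20 and -0.32 at water and -0.14, 0.26 and 0.06 under DSS. Dhx58 encodes LGP2, which tunes both sensors, and read 0.00, -0.02 and -0.02 in WT water and 0.67, -0.23 and 0.00 in WT DSS. In TG it read 0.33, -0.07 and -0.22 at water and 0.36, 1.06 and 0.04 under DSS, with TG DSS replicate 2 the highest array and the groups overlapping. Its TG difference was 0.47 ± 0.28 (limma adjusted p = 1). Zbp1, a sensor of Z-form nucleic acid that triggers cell death, had DSS differences of 0.22 ± 0.34 in WT and 0.30 ± 0.34 in TG.

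The Ifit proteins, among the antiviral effectors, bind foreign RNA or block its translation, and Ifit2 and Ifit1 spanned the widest ranges of the 32 genes. Ifit2 read 0.16, -0.58 and -0.21 in WT water and 2.23, 0.54 and 1.78 in WT DSS. In TG it read -0.74, -1.11 and -0.16 at water and 0.91, 0.38 and -0.58 under DSS. WT DSS lay above WT water on every array, and TG DSS overlapped TG water through replicate 3. The difference in WT, 1.73 ± 0.48 (3.31-fold; unadjusted p = 0.00461; limma adjusted p = 0.145), was the largest among the 32 genes, as was that in TG, 0.91 ± 0.48 (1.88-fold; limma adjusted p = 1). Without WT DSS replicate 2 and TG DSS replicate 1 together, Ifit2 passed in WT, at 2.22 ± 0.35 (limma adjusted p = 0.0261), where 1.32% of all genes passed.

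Ifit1 and Ifit3 lie beside Ifit2 on chromosome 19, with 6585 bases between Ifit2 and Ifit3 and 51907 between Ifit3 and Ifit1. Ifit1 read 0.86, -0.73 and -0.41 in WT water and 1.84, -0.39 and 1.69 in WT DSS, and -1.24, -1.20 and 0.39 in TG water and 0.43, 1.45 and -1.32 in TG DSS. Ifit3 read 0.19, -0.17 and 0.07 in WT water and 1.504, -0.32 and 0.00 in WT DSS, and -0.89, -1.04 and 0.00 in TG water and 0.43, 0.76 and -0.54 in TG DSS. WT DSS replicate 3 separated the neighbours, since Ifit1 and Ifit2 were high on it at 1.69 and 1.78 while Ifit3 was at 0.00. All 3 genes were low in TG water replicates 1 and 2, between -1.24 and -0.74, and not in TG water replicate 3. The DSS differences of Ifit1 were 1.14 ± 0.82 in WT and 0.87 ± 0.82 in TG, and those of Ifit3 0.37 ± 0.48 and 0.86 ± 0.48, with groups that overlapped.

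The OAS genes encode enzymes that sense double-stranded RNA and relatives of them. Oasl2 read 0.12, -0.24 and -0.81 in WT water and 1.20, 0.04 and 0.17 in WT DSS, and -0.60, -0.90 and -0.04 in TG water and 0.50, 1.46 and -1.59 in TG DSS. Its highest and lowest arrays, TG DSS replicates 2 and 3, both belonged to the same group, whose SD was 1.56. Oasl1, which restrains translation of Irf7 and lies 10898 bases from Oasl2, read 0.22, 0.10 and -0.19 in WT water and 0.39, -1.58 and 0.27 in WT DSS, and 0.00, 0.00 and -0.20 in TG water and -0.08, 0.51 and -0.71 in TG DSS. On WT DSS replicate 2 these neighbours parted, with Oasl1 at its lowest value and Oasl2 at 0.04. Oas2 and Oas3, 3212 bases apart on chromosome 5, had DSS differences of 0.48 ± 0.35 and 0.35 ± 0.47 in WT and of 0.49 ± 0.35 and 0.28 ± 0.47 in TG.

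Of the other effectors, Rsad2 encodes viperin, which makes a chain-terminating nucleotide. It read 0.42, -0.02 and -0.36 in WT water and 1.29, -0.36 and 0.33 in WT DSS, and 0.00, -0.35 and -0.23 in TG water and 0.15, 1.17 and 0.00 in TG DSS. TG DSS lay above TG water, narrowly at replicate 3, and the TG difference was 0.63 ± 0.41. Mx1, a dynamin-like GTPase against influenza viruses, stood at 0.32 ± 0.20 in WT and 0.24 ± 0.20 in TG, and its neighbour Mx2 at -0.05 ± 0.11 and 0.06 ± 0.11. Bst2, which tethers budding virus to the membrane, stood at 0.27 ± 0.11 in WT (unadjusted p = 0.0369; limma adjusted p = 0.295) and 0.02 ± 0.11 in TG.

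Eif2ak2 encodes PKR, the kinase that halts translation on sensing double-stranded RNA. It read -0.08, -0.40 and 0.21 in WT water and -0.10, -0.68 and -0.19 in WT DSS, and 0.08, 0.15 and -0.43 in TG water and 0.09, 0.38 and 0.21 in TG DSS. Under DSS every TG array lay above every WT array, with a difference of 0.55 ± 0.21 (unadjusted p = 0.0259; limma adjusted p = 0.254). Its interaction was 0.53 ± 0.30 (limma adjusted p = 0.852). WT DSS replicate 2 was its lowest array, as it was for Ifih1, Irf7, Irf8 and Oasl1.

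For the ISG15 pathway, in which a ubiquitin-like protein is attached to other proteins, Usp18 and Herc6 were measured. Usp18 removes ISG15 and dampens the type I receptor. It read 0.30, -0.74 and -0.41 in WT water and 1.49, 0.22 and 0.01 in WT DSS, and -0.65, -0.73 and -0.01 in TG water and 0.60, 0.92 and -1.07 in TG DSS. WT DSS replicate 1 was its highest array and TG DSS replicate 3 its lowest, and both DSS groups overlapped with water. The differences were 0.86 ± 0.54 (1.81-fold; limma adjusted p = 0.484) in WT and 0.61 ± 0.54 in TG. Herc6, the mouse ligase that attaches ISG15, stood at 0.17 ± 0.39 and 0.28 ± 0.39, with its highest value, 1.14, on TG DSS replicate 2.

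The immunity GTPases act on vacuoles that hold bacteria or parasites and respond strongly to interferon gamma. Irgm1 read -0.25, -0.50 and 0.03 in WT water and 0.56, 0.12 and 0.06 in WT DSS, and -0.23, -0.03 and -0.58 in TG water and 0.32, 0.25 and -0.18 in TG DSS. WT DSS lay above WT water, narrowly at replicate 3, and the WT difference was 0.49 ± 0.20 (unadjusted p = 0.0386; limma adjusted p = 0.3). In TG it was 0.41 ± 0.20, with DSS replicate 3 inside the water range. Gbp3 read 0.02, -0.49 and -0.02 in WT water and 1.75, 1.25 and -0.40 in WT DSS, and -0.40, -0.45 and 0.03 in TG water and 0.95, 0.40 and -0.38 in TG DSS. WT DSS replicates 1 and 2 were its highest arrays, and replicate 3 lay among the water values. The Gbp3 difference was 1.03 ± 0.50 (2.04-fold; limma adjusted p = 0.362) in WT. Leaving out WT DSS replicate 3 gave 1.66 ± 0.35 (limma adjusted p = 0.042), the only single omission under which any of the 32 genes passed. At that omission 2.88% of all genes passed, which is near the share of 1 in 32.

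Tap1 and Tap2 form the pump that brings peptides into the endoplasmic reticulum for MHC class I. Tap1 read 0.08, -0.18 and -0.23 in WT water and 1.09, 0.52 and 0.41 in WT DSS, and -0.15, -0.31 and -0.08 in TG water and 0.55, 0.57 and -0.20 in TG DSS. All WT DSS arrays lay above WT water, and in TG this held for replicates 1 and 2. The WT difference was 0.79 ± 0.23 (1.72-fold; unadjusted p = 0.00589; limma adjusted p = 0.162), and the TG difference 0.48 ± 0.23 (limma adjusted p = 1). Tap2 read 0.06, 0.00 and -0.27 in WT water and 0.46, 0.13 and 0.35 in WT DSS, and -0.12, -0.20 and -0.09 in TG water and 0.00, 0.13 and -0.05 in TG DSS. It was the one gene of the 32 whose DSS arrays lay above the water arrays in both genotypes, at 0.38 ± 0.11 in WT (unadjusted p = 0.00669; limma adjusted p = 0.169) and 0.16 ± 0.11 in TG. Under DSS its 3 TG arrays lay below the WT arrays, narrowly at replicate 2, with TG minus WT at -0.29 ± 0.11 (limma adjusted p = 0.265).

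Parp9 and Parp14 encode ADP-ribosyltransferase family proteins that modulate interferon signalling. Parp14 read 0.00, -0.15 and -0.03 in WT water and 0.74, 0.26 and 0.50 in WT DSS, and -0.08, -0.07 and 0.00 in TG water and 0.35, 0.58 and -0.08 in TG DSS. WT DSS lay above WT water on all arrays, and TG DSS replicate 3 lay at the lower end of TG water. The differences were 0.56 ± 0.16 (unadjusted p = 0.00643; limma adjusted p = 0.168) in WT and 0.34 ± 0.16 in TG. Parp9, on the same stretch of chromosome 16, read 0.07, 0.09 and -0.11 in WT water and 0.29, -0.31 and 0.01 in WT DSS, and -0.04, -0.01 and -0.22 in TG water and 0.35, 0.42 and -0.10 in TG DSS. Its WT difference, -0.02 ± 0.17, held a low value at replicate 2, and its interaction was 0.33 ± 0.24 (limma adjusted p = 0.855).

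The remaining genes were Ifi35, Rtp4 and Xaf1. Ifi35, a leucine zipper protein, read -0.12, -0.08 and -0.02 in WT water and 0.26, -0.01 and 0.37 in WT DSS, and 0.08, 0.01 and -0.16 in TG water and 0.14, 0.42 and -0.05 in TG DSS. Its WT groups did not overlap, with a difference of 0.28 ± 0.13 (unadjusted p = 0.0629; limma adjusted p = 0.355). Xaf1, a partner of the apoptosis inhibitor XIAP, read 0.04, -0.75 and -0.04 in WT water and 0.25, -0.42 and 0.30 in WT DSS, and -0.75, -0.65 and 0.04 in TG water and 0.13, 0.07 and -0.28 in TG DSS. WT water replicate 2 and TG water replicates 1 and 2 were low for it, and the TG difference was 0.43 ± 0.28. Rtp4, a receptor transporter protein, had its highest values on TG DSS replicate 2, at 1.59, and WT DSS replicate 1, at 1.12.

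TG was then compared with WT. At water, 7 of the 32 genes had a higher TG mean, where 54.7% of all genes did, and 25 had a lower one. The median difference was -0.07 beside 0.01 over all genes. No gene of the 32 passed by limma, where 0% of all genes did, and none had an unadjusted p under 0.05, where 0.306% of all genes did (0.176% higher and 0.13% lower). The groups overlapped for all 32 genes, where 1.93% of all genes were apart in the higher and 3.05% in the lower direction. Ifit3 had the lowest difference, -0.67 ± 0.48, followed by Ifit1 at -0.59 ± 0.82 and Ifit2 at -0.46 ± 0.48. Without WT water replicate 1, 19 of the 32 genes lay above 0 instead of 7. With weights per array, which weighted that array at 7.15 and TG water replicate 2 at 6.57 and the other 10 at 1.91 or less, Ifit1, Ifit2, Ifit3, Xaf1 and Tap2 passed as lower in TG, with limma adjusted p-values between 0.0328 and 0.0456, where 9.89% of all genes passed under the same weights.

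Under DSS, 12 of the 32 genes had a higher TG mean, where 57.9% of all genes did, and the median difference was -0.06 beside 0.04. None of the 32 passed, where 0.0401% of all genes did. An unadjusted p under 0.05 was found for 4 genes, or 1 higher (Eif2ak2) and 3 lower (Ifit2 at -1.28 ± 0.48, Ddx58 at -0.57 ± 0.24 and Tap2), where 15.9% of all genes had one, 10.3% higher and 5.63% lower. The arrays were apart for 1 gene in the higher direction (Eif2ak2) and 1 in the lower (Tap2), where 14.1% and 4.9% of all genes were. The direction rested on single arrays and on the scaling. After quantile normalization 19 genes lay above 0, with a median of 0.06, and 0 had an unadjusted p under 0.05, where 10.7% of all genes had one. Without WT DSS replicate 1 or without TG DSS replicate 3, 22 genes lay above 0, and without WT DSS replicate 2 it was 6. TG minus WT under DSS and the DSS comparisons share arrays, so their values are not independent of each other.

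The interaction was above 0 for 16 of the 32 genes, where 52.2% of all genes were, and below 0 for 16, with a median of -0.01 beside 0.01 over all genes. No gene of the 32 passed by limma and none had an unadjusted p under 0.05, where 5.85% of all genes had one, 4.58% above and 1.27% below 0. The values ran from -0.82 ± 0.67 for Ifit2 to 0.58 ± 0.40 for Ifih1. Without TG DSS replicate 3 the median was 0.37, and without TG DSS replicate 2 it was -0.21. After quantile normalization 24 genes lay above 0.

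The other steps of the interferon pathway were read from lists chosen by function. Of the interferons themselves 10 of 12 genes were measured, and 0 passed in either direction in WT or TG under DSS, with medians of -0.03 and -0.07. Ifnb1, the first type I interferon made, stayed between -0.19 and 0.20 on all arrays. Ifng, which T and NK cells make, read 0.82 on WT DSS replicate 1 and between -0.21 and 0.22 on the other 11 arrays, with a WT difference of 0.29 ± 0.21 (limma adjusted p = 0.548). WT DSS replicate 1 was also the highest array for 13 of the 32 interferon-stimulated genes, and on TG DSS replicate 2, the highest for 12 of them, Ifng read -0.06. The part of Ifng in the values of these genes was not tested. Ifna5, Ifnk and Ifna2 stood at -0.04, -0.19 and -0.28 in WT and at -0.37, -0.23 and -0.01 in TG.

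Of the receptors 6 of 7 listed symbols were measured and 0 passed in either genotype. Ifnar2, a chain of the type I receptor, read 1.03, 3.00 and 0.55 in WT DSS and 0.69, -0.09 and -0.27 in TG DSS, with water arrays between -0.31 and 0.32. Its WT difference was 1.46 ± 0.52 (limma adjusted p = 0.231), and its high WT DSS replicate 2 was also the array with the highest macrophage markers. Ifnar1 stood at 0.35 ± 0.18 and Ifnlr1, the epithelial receptor chain for type III interferon, at -0.47 ± 0.23 in WT. Both differences came mostly from WT DSS replicate 2. The WT DSS arrays read 0.03, 0.81 and 0.08 for Ifnar1 and -0.20, -1.08 and -0.02 for Ifnlr1. The 8 measured kinases and inhibitors held 0 that passed. Socs3, an inhibitor of STAT3 signalling, read 1.42, 2.74 and 0.52 in WT DSS and 1.14, 0.05 and 0.62 in TG DSS, above all water arrays of its genotype, with differences of 1.74 ± 0.46 and 0.82 ± 0.46 (limma adjusted p = 0.136 and 1). Socs1, the inhibitor most tied to interferon, stood at 0.27 ± 0.15 and 0.08 ± 0.15, Ptpn2 at 0.24 ± 0.10 and 0.05 ± 0.10, and Jak1 at 0.31 ± 0.16 and 0.03 ± 0.16 in WT and TG. For Jak1 the WT DSS arrays read 0.11, 0.76 and -0.01, with replicate 2 again the highest.

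Of the genes that lead to interferon production 13 of 16 listed symbols were measured and 0 passed under DSS. Mavs, the mitochondrial adaptor through which Ddx58 and Ifih1 signal, read 0.00, -0.12 and 0.06 in WT water and -0.43, -0.65 and -0.45 in WT DSS, and 0.05, 0.13 and -0.08 in TG water and 0.00, 0.12 and 0.11 in TG DSS. Every WT DSS array lay below every other array. The WT difference was -0.49 ± 0.09 (unadjusted p = 0.000338; limma adjusted p = 0.067), and TG minus WT under DSS was 0.59 ± 0.09 (limma adjusted p = 0.0782). Myd88, the adaptor of most Toll-like receptors, stood at 0.71 ± 0.24 in WT, and Tlr7, a receptor for single-stranded RNA, at 1.25 ± 0.49. Their WT DSS arrays read 0.59, 1.10 and 0.07 for Myd88 and 1.16, 2.51 and 0.00 for Tlr7, both highest on replicate 2.

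MHC class I presentation was covered by 13 of 16 listed genes, of which 0 passed in WT or TG under DSS. An unadjusted p under 0.05 in the higher direction was found for 5 in WT and 3 in TG, beside 5.7% and 1.21% of all genes. B2m, the light chain of MHC class I, read 0.09, -0.06 and -0.06 in WT water and 0.38, 0.58 and 0.55 in WT DSS, and 0.04, -0.04 and -0.12 in TG water and -0.04, 0.13 and -0.16 in TG DSS. Every WT DSS array lay above all the others, WT DSS replicate 2 included, with a WT difference of 0.51 ± 0.10 (unadjusted p = 0.000363; limma adjusted p = 0.0678). Under DSS, TG minus WT was -0.53 ± 0.10 (limma adjusted p = 0.0882), and the interaction was -0.50 ± 0.14 (limma adjusted p = 0.797). Nlrc5, the activator of MHC class I genes, stood at 0.56 ± 0.17 in WT and 0.06 ± 0.17 in TG. Psmb8, an immunoproteasome subunit, stood at 0.51 ± 0.21 and 0.46 ± 0.21, and Erap1, which trims peptides, at 0.03 ± 0.11 and 0.31 ± 0.11.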

How the data were processed

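The deposited table holds log2 values of 28815 probe sets on 12 Affymetrix arrays. The authors used RMA in Affymetrix Expression Console, per the submitters' processing notes. No source used here gives the versions, the genome build or the base of the logarithm, and log2 was taken because RMA returns it. Every probe set has a median of 0 (to 5e-07) across the 12 arrays, which shows that the deposited values are centred. Without absolute levels, no filter on dim probe sets was applied.

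Probe sets with 1 symbol (21780) gave 19935 genes, and 7035 others were left out. Group means were estimated in limma 3.58.1 (R 4.3.3) from the 12 arrays together, with 8 residual degrees of freedom. Its p-values are two-sided, with Benjamini-Hochberg adjustment across all genes. With 3 arrays per group, permutation can reach no p under 0.1 and was not used. The number of arrays limits the precision. The fit was tested on simulated data. Python 3.11.15, pandas 2.3.3, numpy 2.4.6 and matplotlib 3.10.9 made the tables and figures.

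The listed genes, role groups and gene lists were chosen with earlier results of these data known. Values on all arrays were given for the gene of each role group with the smallest p for DSS in WT, for DSS in TG and for the interaction. Irf7, Ifit1, Ifit3, Oasl1, Oasl2, Rsad2 and Ifih1 were added after their values were seen. In the pathway lists, the 3 genes with the smallest p under DSS and Ifnb1, Ifng, Socs1 and Psmb8 were named. Alternatives were a fit on the groups compared, a replicate block, single probe sets, each probe set on its own, median centring, quantile normalization, a trended robust eBayes, array or group weights, other thresholds and the omission of arrays.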

Additional observations from a re-analysis of the deposited data

Results flagged for a closer look

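Eif2ak2 stood out because its DSS arrays lay on opposite sides of the water mean in the 2 genotypes. All 3 WT DSS arrays lay below the WT water mean and all 3 TG DSS arrays above the TG water mean, and the interaction (TG difference minus WT difference) was 0.53 ± 0.30 (limma adjusted p = 0.852). By the interaction term the difference did not pass.

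Probe sets with several symbols were outside the comparisons and 3 of them had a mean over the DSS arrays above the highest water array of the genotype. The probe set annotated to both Igtp and Irgm2 read 1.53, 1.15 and 0.26 in WT DSS replicates 1 to 3 and 1.06, 0.70 and -0.31 in TG DSS replicates 1 to 3. DSS minus water was 1.01 in WT and 0.70 in TG, and 3 WT and 2 TG DSS arrays exceeded the water arrays. The probe set annotated to both Gbp2 and Gbp2b read 2.15, 2.14 and -0.51 in WT DSS and 1.54, 0.62 and -0.36 in TG DSS, with DSS minus water at 1.22 in WT and 0.82 in TG. The probe set annotated to both Isg15 and Gm9706 read 0.92, -0.05 and -0.09 in WT DSS, with DSS minus water at 0.31 in WT, and only replicate 1 exceeded the water arrays. Which of the paired genes gives each signal is not known here, and these values were not tested.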

How the results depend on the processing

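In the main analysis 0 of the 32 genes passed in any of the 5 comparisons, and in DSS against water the medians stayed above 0 under every alternative run. Omitting 1 array at a time gave 0 to 1 passing genes and 19 to 30 above 0 for DSS in WT, with medians from 0.12 to 0.51. For DSS in TG it gave 0 passing, 25 to 32 above 0 and medians from 0.20 to 0.62. For TG minus WT at water it gave 6 to 19 above 0 with medians from -0.12 to 0.01, and under DSS 6 to 22 with medians from -0.27 to 0.19. For the interaction it gave 10 to 24 above 0 with medians from -0.21 to 0.37. With weights per array 1 gene passed for DSS in WT (Ifit2) and 5 for TG minus WT at water, where 3.78% and 9.89% of all genes passed, and under DSS TG minus WT had 6 genes above 0 and a median of -0.35. Without both WT DSS replicate 2 and TG DSS replicate 1, 1 gene (Ifit2) passed for DSS in WT and 1 (Ifit2) for TG minus WT under DSS, where 1.32% and 1.06% of all genes passed, with 7 genes above 0 there and 10 for the interaction. Quantile normalization gave 19 genes above 0 for TG minus WT under DSS. With the replicate number as a block, 0 of the 32 genes passed in each comparison, and over all genes the count fell from 34 to 0 for DSS in WT and from 8 to 0 for TG minus WT under DSS. Same-numbered arrays did not consistently deviate together (r between -0.484 and 0.377). With so few arrays per group, these correlations cannot decide whether the numbers pair the arrays, and the sample labels do not say. Of 3488 values of single genes under the alternatives, 212 changed sign, none of them for a gene with an unadjusted p under 0.05 in that comparison. The cause of these shifts was not tested. The centred values do not show how far a gene's signal stood over background.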
